A study of Rattus norvegicus and Mus musculus with 10 samples.

Results

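The cells described here are those that the authors' annotation places in cluster ILC (innate lymphoid cells) of mouse skull dura. They numbered 560 of 7355 annotated mouse cells, 53 of them from mice with experimental autoimmune encephalomyelitis (EAE) and 507 from naive mice. EAE is a model of multiple sclerosis in which immunization sets off inflammation of the central nervous system. The EAE library pooled cells of 3 C57BL/6 mice, actively immunized and taken when disease peaked, and the naive library those of 4 C57BL/6 mice that were not immunized. In both, dural cells were sorted as positive for CD45, a marker of leukocytes, and negative for a CD45 label given into the blood, which leaves out cells inside vessels. Both were run with version 3 of a droplet kit that reads the 3' ends of transcripts and counts molecules by unique molecular identifiers (UMIs). Each condition is 1 pooled library, so mice cannot be told apart, no difference has a replicate check and no test was made. Every interval below is at 95% and covers counting error only.

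Innate lymphoid cells are lymphocytes without a rearranged antigen receptor. The type 2 subset (ILC2) depends on the transcription factors GATA3 and RORα and answers the alarm cytokines IL-33, IL-25 and TSLP, which signal through receptors encoded by Il1rl1, Il17rb and Crlf2. It makes IL-5, IL-13, amphiregulin and GM-CSF, the products of Il5, Il13, Areg and Csf2, and resides in tissues, the meninges of the mouse among them. Type 1 cells and natural killer (NK) cells rely on T-bet and Eomes, and type 3 cells are known for IL-17 and IL-22.

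The libraries differed in depth. The EAE library held 59256418 UMIs in 4579 annotated cells, with a median of 11743 and none under 5722, and the naive library 15007864 UMIs in 2776 cells, with a median of 4163.5 and a minimum of 503. Within cluster ILC the EAE cells held 5733 to 14462 UMIs (median 6769) and the naive cells 901 to 19652 (median 3883), or 383895 and 2116074 UMIs in all. The labels state a mean of 3900 cells per mouse sample with an SEM of 1100, beside means of 4063 barcodes and 3677.5 annotated cells per library in the files. Of the barcode sequences 8 occurred in both libraries, and 0 of them in cluster ILC of both. In every EAE cluster, ILC included, Xist was at 0 UMIs, whereas it stood at 343 CPM in naive ILC (CPM, a gene's summed UMIs relative to the total UMIs of the same cells). Xist is the RNA of the inactive X chromosome, so what EAE and the sex of the pooled mice add to a difference cannot be told apart.

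The label was checked against the 5 markers Gata3, Il1rl1, Rora, Csf2 and Il7r, and against genes of the T cell receptor complex. Naive cells carried the markers. A UMI of Gata3 was found in 90.9% of them, of Rora in 502 of 507, of Il7r in 82.1%, of Csf2 in 67.7% and of Il1rl1 in 67.3%, whereas 453 of 507 had no UMI of Cd3d, Cd3e or Cd3g, the genes of CD3. In most EAE cells of the cluster the data went against the label. In 38 of 53 EAE cells (71.7%, 57.7 to 83.2) there were at least 2 UMIs of these CD3 genes, against 22 of 507 naive cells (4.34%, 2.74 to 6.50). These are called CD3-rich here and the others CD3-poor, a division chosen after the data were seen. The 38 CD3-rich EAE cells held 4 to 30 CD3 UMIs (median 14), and the 15 CD3-poor ones held none. In naive CD3-rich cells the count was 2 to 13 (median 2.5). The receptor genes Trbc1 and Trbc2 were not confined to CD3-rich cells. They had a UMI in 12 and 14 of 15 CD3-poor EAE cells, and in 45.8% and 62.5% of CD3-poor naive cells. Their levels were 454 and 360 CPM in CD3-poor EAE cells, against 842 and 1411 CPM in CD3-rich ones. Trac, another receptor gene, had 0 UMIs in CD3-poor EAE cells.

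In EAE cells, markers of ILC2 followed the CD3 division in part. Rora had a UMI in 15 of 15 CD3-poor and 37 of 38 CD3-rich EAE cells, at 1593 and 794 CPM. Il7r had one in 14 and 33 of them (471 and 494 CPM), and Areg in 10 and 23. Csf2 had one in 6 and 1 of them. Gata3 or Il1rl1 had a UMI in 11 of 15 CD3-poor and 11 of 38 CD3-rich EAE cells, against 463 of 485 CD3-poor and 22 of 22 CD3-rich naive cells. The 6 cluster genes (Gata3, Il1rl1, Il5, Il13, Calca and Hs3st1) together gave a median of 15 UMIs per CD3-poor and 0 per CD3-rich EAE cell, and of 24 per CD3-poor and 32 per CD3-rich naive cell. These 6 leave out Rora, Il7r and Areg, which most CD3-rich EAE cells held, so the medians depend on the choice of genes. The EAE members are therefore described below both as deposited and as the 15 CD3-poor cells, and the 38 CD3-rich ones are called by that rule alone. The shares of CD3-rich cells in other clusters give the scale. They were 96.7% in EAE cluster CD4Tc (CD4 T cells), 100% in EAE gdTc (gamma delta T cells), 16.2% in EAE NK and 3.91% in EAE granulo1, a neutrophil cluster in which CD3 UMIs should be missing.

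**Figure D1:**
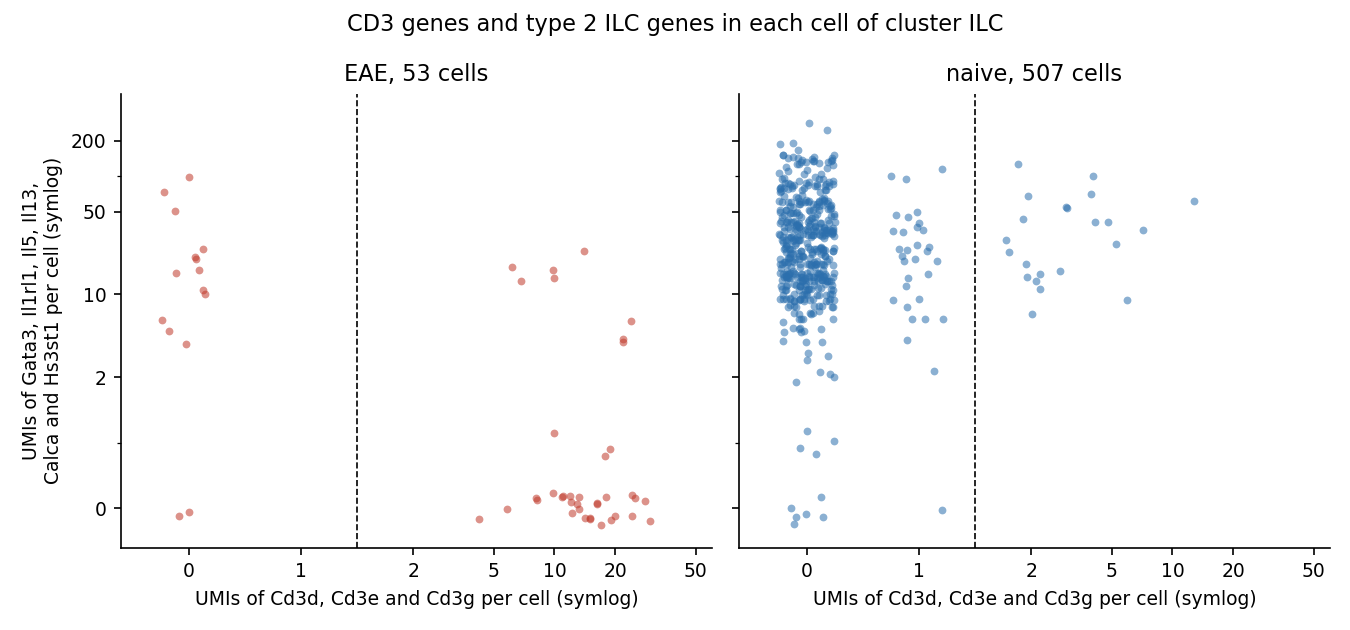
UMIs of the 3 CD3 genes (x axis) against UMIs of 6 chosen type 2 ILC genes (y axis) in each cell of cluster ILC. The 6 are Gata3, Il1rl1, Il5, Il13, Calca and Hs3st1, without Rora, Il7r and Areg. EAE is on the left and naive on the right, on symlog axes (linear near 0) with points spread at random by up to 0.25. The dashed line separates CD3-poor from CD3-rich cells: 38 of 53 EAE cells lie to its right, mostly with 0 UMIs of the 6 genes, while 485 of 507 naive cells lie to its left.

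The naive cells define what the cluster is. The genes that stood out most in them, against all other annotated naive cells, were those of type 2 cytokines. These genes helped to form the cluster, so the values describe it and support nothing. Il5, which encodes the growth factor of eosinophils, reached 1793 CPM against 13.3 CPM in the other naive cells, 135-fold (116 to 158). Il13, a cytokine of barrier tissues and of mucus and fibrosis, reached 1390 against 40.6 CPM (34.3-fold, 31.2 to 37.7). For Csf2, which encodes GM-CSF, the values were 3652 and 108 CPM (33.9-fold). Areg, the epidermal growth factor family member amphiregulin, stood at 5926 against 276 CPM (21.5-fold, 20.7 to 22.3). The remaining leaders were Ccl1 (30.9-fold), a chemokine, and its receptor gene Ccr8 (59.1 against 2.95 CPM), Igsf5 (29.0-fold), Hs3st1 (25.2-fold), a heparan sulfate sulfotransferase, Rasl11a (17.9-fold) and Calca (18.1-fold), the gene of calcitonin and of the neuropeptide CGRP.

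Several of these genes are neighbours. On GRCm38 (GENCODE M21) the type 2 cytokine locus of chromosome 11 holds Il4 (chr11:53602982-53618669, minus strand), Il13 (chr11:53631324-53634702, minus strand) and Il5 (chr11:53720794-53725106, plus strand), and Csf2 follows at chr11:54247271-54249667, minus strand. Il1rl1, at chr1:40429570-40465415 on the plus strand, is followed by Il18r1 at chr1:40465552-40500854. Gata3 lies at chr2:9857078-9890034 on the minus strand. All are protein-coding genes, and the 3' counting does not tell which of their exons a read came from.

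Among transcription factors, naive cells held 1334 CPM of Gata3, 1800.0 CPM of Rora, 1471 CPM of Id2, an inhibitor of E proteins that all innate lymphoid cells need, and 2322 CPM of Lmo4, a LIM domain adaptor. Bhlhe40 was at 1352 CPM and Pparg, a lipid-sensing nuclear receptor of ILC2, at 73.2 CPM. Some genes of the other subsets were near 0. Tbx21, which encodes T-bet, had 2 UMIs over 507 naive cells, Ncr1 2, and Eomes and Il23r 0. An absence of UMIs in 507 cells allows a share of cells with a UMI of up to 0.592% taken as 3 counts, and of up to 0.725% by the Clopper-Pearson interval. Il22, a type 3 cytokine, had 55 UMIs, all in 1 naive cell. Summed over naive cells, the 13 listed ILC3 genes came to 426 CPM and the 15 of NK cells and ILC1 to 78.0 CPM.

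Receptors for alarm cytokines were uneven. Il1rl1, the IL-33 receptor, stood at 387 CPM and had a UMI in 341 naive cells. The level was 61.4 CPM for the TSLP receptor gene Crlf2 and 42.1 CPM for the IL-25 receptor gene Il17rb, with a UMI in 76 naive cells. Il7r was at 563 CPM and Il2ra, the high-affinity chain of the IL-2 receptor, at 151 CPM. Klrg1, a surface lectin used to mark inflammatory ILC2, had 55 UMIs in 41 naive cells, while Tnfrsf18 (GITR) had a UMI in 95.3% of naive cells and Icos, a costimulatory receptor, in 83.8%. Arg1, the arginase that marks many tissue ILC2, had a UMI in 19.9%.

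Cytokine UMIs were spread unevenly over the naive cells. The tenth of cells with the most UMIs of a gene held 74.5% of its UMIs for Il13, 60.6% for Il5, 55.7% for Csf2 and 43.7% for Areg, against 27.5% for Gata3 and 22.2% for Rora. The highest naive cell held 234 UMIs of Csf2, 140 of Il13, 108 of Il5 and 439 of Areg. Of the 4 genes Csf2, Il5, Il13 and Areg, all 4 had a UMI in 91 naive cells, 3 in 191, 2 in 143, 1 in 69 and none in 13. Median depth went with this number, at 3232 UMIs per cell for none and 4379 for all 4, and the part of detection in this spread was not tested.

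Pairs of cytokines shared cells to different degrees in the naive library. Il13 and Il5 were both found in 135 naive cells, 69% of the 196 with Il13 and 50% of the 269 with Il5. The level of Il5 was 2874 CPM in naive cells with a UMI of Il13 and 1055 CPM in those without. Csf2 behaved otherwise, with 3564 CPM in naive cells with Il13 and 3711 CPM in those without. Areg was found in 98% of naive cells with Csf2, 99% of those with Il5 and 98% of those with Il13. Levels differed with depth. The 127 naive cells with the most UMIs gave 2328 CPM of Il5, 1549.8 CPM of Il13 and 4488 CPM of Csf2, against 944, 812 and 3215 CPM in the 127 with the fewest.

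Neuropeptide and lipid genes added to the profile of naive cells. Calca had a UMI in 350 of 507 naive cells at 2276 CPM. Ramp1 and Ramp3, which encode partner proteins of the calcitonin family receptors, stood at 294 and 1037 CPM, and Calcrl, the receptor itself, at 12.3 CPM (26 UMIs). The leukotriene receptor gene Cysltr1 had 90.7 CPM and the prostaglandin receptor gene Ptger4 77.5 CPM. Nmur1, the neuromedin U receptor of mouse ILC2, had 4 UMIs and Ptgdr2, which encodes CRTH2, 0. Among chemokines, naive cells held 4756 CPM of Cxcl2, a neutrophil attractant, and 1492 CPM of Ccl1. Hilpda, a lipid droplet protein induced by hypoxia, reached 6657 CPM, with a UMI in 98.8% of naive cells.

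Cells with some of the same genes were also found under another name in the naive library. Naive cluster CD4Tc held 353 cells, of which 235 were CD3-poor, and 203 of these had a UMI of Gata3 or Il1rl1. The CD3-poor cells of that cluster gave 609 CPM of Gata3, 273 CPM of Il1rl1, 887 CPM of Csf2 and 834 CPM of Areg, against 229, 62.4, 324 and 303 CPM in its 118 CD3-rich cells. Il7r was at 774 against 599 CPM. Rora went the other way, at 356 CPM in CD3-poor and 550 CPM in CD3-rich CD4Tc cells, against 1823 CPM in CD3-poor naive ILC. So did Icos (387 against 816 CPM) and Cxcr6 (584 against 647 CPM). Il5 and Il13 were at 29.8 and 39.3 CPM in these CD3-poor CD4Tc cells, far below 1793 and 1390 CPM in naive ILC. In the EAE library 147 of 152 CD4Tc cells were CD3-rich, and Gata3 stood there at 27.9 CPM in the whole cluster. Counts of cluster ILC therefore leave out naive CD3-poor cells with Gata3 or Il1rl1 that the annotation placed elsewhere. Whether those cells are ILC was not tested.

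**Figure D2:**
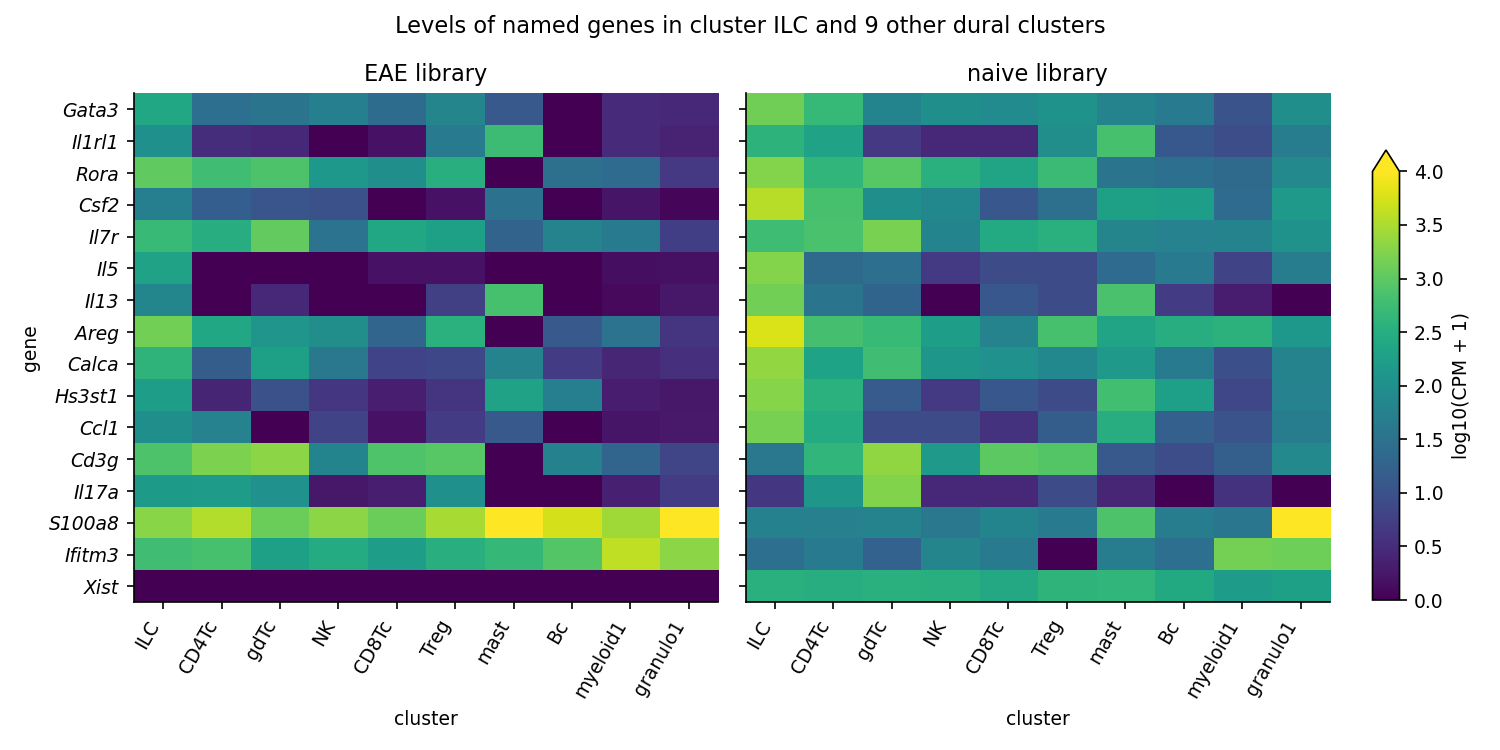
Level of 16 genes (rows, log10 of CPM + 1) in cluster ILC and 9 other clusters (columns), EAE library on the left and naive library on the right, with UMIs summed over all cells of a cluster and the colour scale capped at 4. Csf2, Il5, Areg and Calca peak in naive ILC, S100a8 is higher in the EAE than in the naive library in each cluster shown, and Xist is at 0 in each EAE cluster.

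Fewer of the EAE cells lay in the cluster. It held 53 of 4579 annotated EAE cells (1.16%, 0.868 to 1.51) and 507 of 2776 naive cells (18.3%, 16.8 to 19.8). Depth bears on this comparison, since no annotated EAE cell held fewer than 5722 UMIs. Among naive cells at or above that count, 40 of 739 were ILC (5.41%, 3.89 to 7.30). With T, NK and ILC clusters as the whole, the share was 53 of 780 EAE cells (6.79%, 5.13 to 8.79) and 507 of 1615 naive cells (31.4%, 29.1 to 33.7). For CD3-poor members the shares were 0.328% of EAE cells (15 of 4579, 0.183 to 0.540) and 17.5% of naive cells (485 of 2776, 16.1 to 18.9), and 0.328% and 4.74% (35 of 739, 3.32 to 6.53) at or above 5722 UMIs. In each of these settings the EAE share was below the naive one. The number of cells per dura was not measured, so fewer ILC and more of the other leukocytes cannot be told apart. The EAE library held 5000 barcodes and the naive one 3126, and whether EAE ILC of low depth were lost was not tested.

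**Figure D3:**
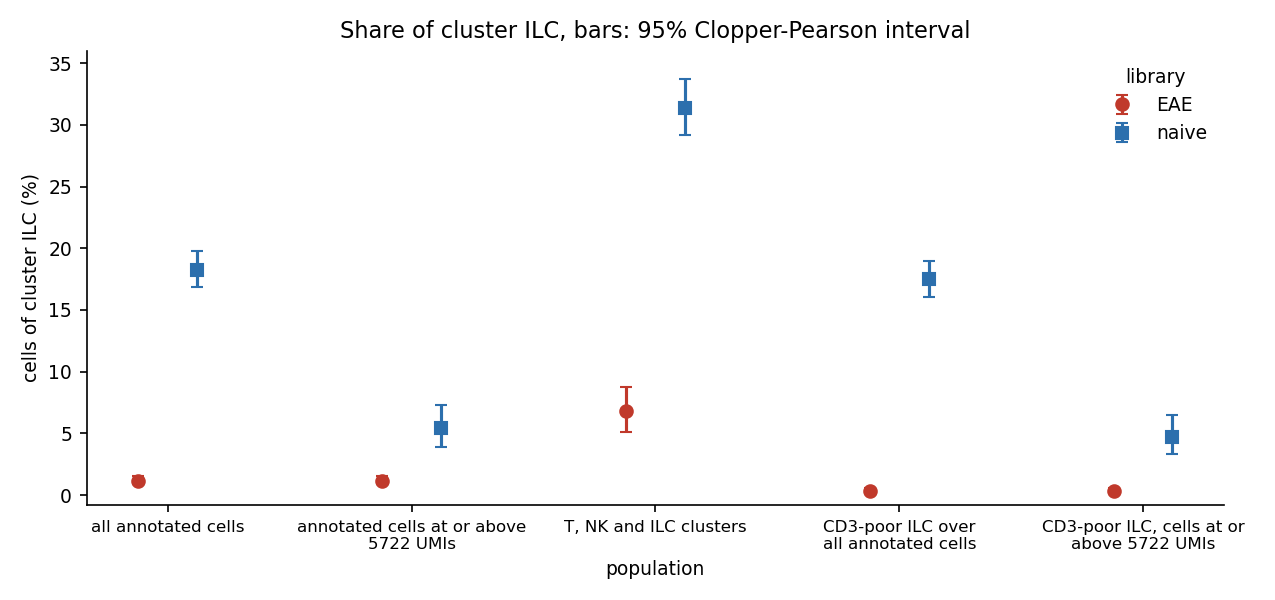
Cells of cluster ILC as a percent of 5 populations (x axis), EAE as circles and naive as squares, with 95% Clopper-Pearson intervals. EAE shares run from 0.328% to 6.79% and lie below the naive share in each pair.

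Gene levels were compared between the 53 EAE and 507 naive cells by summing UMIs. Of 6055 genes with at least 20 UMIs over both groups, 1688 (27.9%) were at least 2-fold higher in EAE and 460 (7.6%) at least 2-fold lower, with a median log2 ratio of 0.52. Scaling by TMM (trimmed mean of M values) moves every log2 ratio by -0.71, after which 567 genes were at least 2-fold higher and 1207 lower. Directions of genes or lists between 0 and 0.71 thus flip with the scaling. Among CD3-poor cells, 1241 of 5356 genes (23.2%) were at least 2-fold higher and 398 (7.43%) lower, with a median of 0.35. Higher and lower were not called equally easily, because EAE cells held fewer UMIs in all. With 0 set to 3 UMIs, a gene absent from EAE cells needs a higher level to be called than one absent from naive cells. Slc25a33, at 0 UMIs in CD3-poor EAE and 49.4 CPM in CD3-poor naive cells, was not called lower there (log2 ratio -0.94). The 12 genes lowest in EAE among those with 50 UMIs were Csf2, Spry2, Xist, Gm26669, Cxcl3, Il4, Il13, Hba-a1, 1810011H11Rik, Slc25a33, Bambi and Ccl1.

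Csf2 was the lowest of them. It had 20 UMIs in EAE cells, 52.1 CPM, against 7727 UMIs and 3652 CPM in naive cells, a 70.1-fold lower level (45.4 to 115). In CD3-poor cells it stood at 128 CPM in EAE and 3715 CPM in naive cells, 28.9-fold lower (17.5 to 51.7). The 15 CD3-poor EAE cells held 0 to 5 Csf2 UMIs each and 6 of them held any. Thinned to 1000 UMIs per cell, which left out 1 naive cell, the expected share of cells with a Csf2 UMI was 10.5% in CD3-poor EAE ILC and 52.7% in naive ILC. The neutrophil cluster granulo1, which should lack the gene, gave 0.0176% in EAE and 7.51% in naive cells at median depths of 14547 and 3295.5 UMIs. Csf2 was also lower in other EAE clusters, with 15.3 against 324 CPM in the CD3-rich cells of CD4Tc, 10.5 against 97.9 CPM in gdTc and 8.85 against 73.3 CPM in NK.

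Il13 had 26 UMIs in EAE cells (67.7 CPM), all in CD3-poor cells, against 2941 in naive cells (1390 CPM). Among CD3-poor cells this was 223 against 1406 CPM, 6.31-fold lower (4.30 to 9.68), with a UMI in 7 of 15 EAE cells and 10 UMIs in the highest. Il5 gave 203 CPM in EAE and 1793 CPM in naive cells, and 668 against 1840 CPM in CD3-poor cells. This EAE value rests on a single cell, which held 75 of the 78 Il5 UMIs, and was 27.0 CPM without it. Il4, the cytokine gene next to Il13, had 2 UMIs in EAE cells and 245 in naive cells. Areg was closer, at 2158 CPM in CD3-poor EAE cells and 5767 CPM in CD3-poor naive cells (2.67-fold lower, 2.36 to 3.04). Of its 252 UMIs in CD3-poor EAE cells, 89 and 60 lay in 2 cells. Without the top cell the level was 1579 CPM. CD3-rich EAE cells held 1078 CPM of Areg, 115 of their 288 UMIs in 1 cell. Of the 4 cytokine genes counted above, all 4 had a UMI in 2 of 15 CD3-poor EAE cells, 3 in 2, 2 in 4, 1 in 5 and none in 2.

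Among CD3-poor cells the identity genes differed less than Csf2 and Il13. Gata3 stood at 505 CPM in EAE and 1335 CPM in naive cells (2.64-fold lower, 2.04 to 3.48), and its UMIs lay in 10 of 15 EAE cells, at 2 to 12 each. Il1rl1 was at 163 against 391 CPM (2.40-fold lower, 1.53 to 4.01). Rora gave 1593 against 1823 CPM and Il7r 471 against 568 CPM, with ratio intervals that include 1. Id2 (557 against 1495 CPM) and Lmo4 (1105 against 2309 CPM) were also lower in EAE, as was Hs3st1 (454 against 1885 CPM, 4.15-fold). Il17rb went the other way at 111 against 42.9 CPM (2.60-fold higher, 1.33 to 4.68), from 13 UMIs in 8 of 15 EAE cells, and CD3-rich EAE cells had none of it. Tcf7 and Zbtb16, factors of early ILC progenitors and of T cells, were at 51.4 against 8.48 CPM and 59.9 against 5.98 CPM, from 6 and 7 EAE UMIs.

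**Figure D4:**
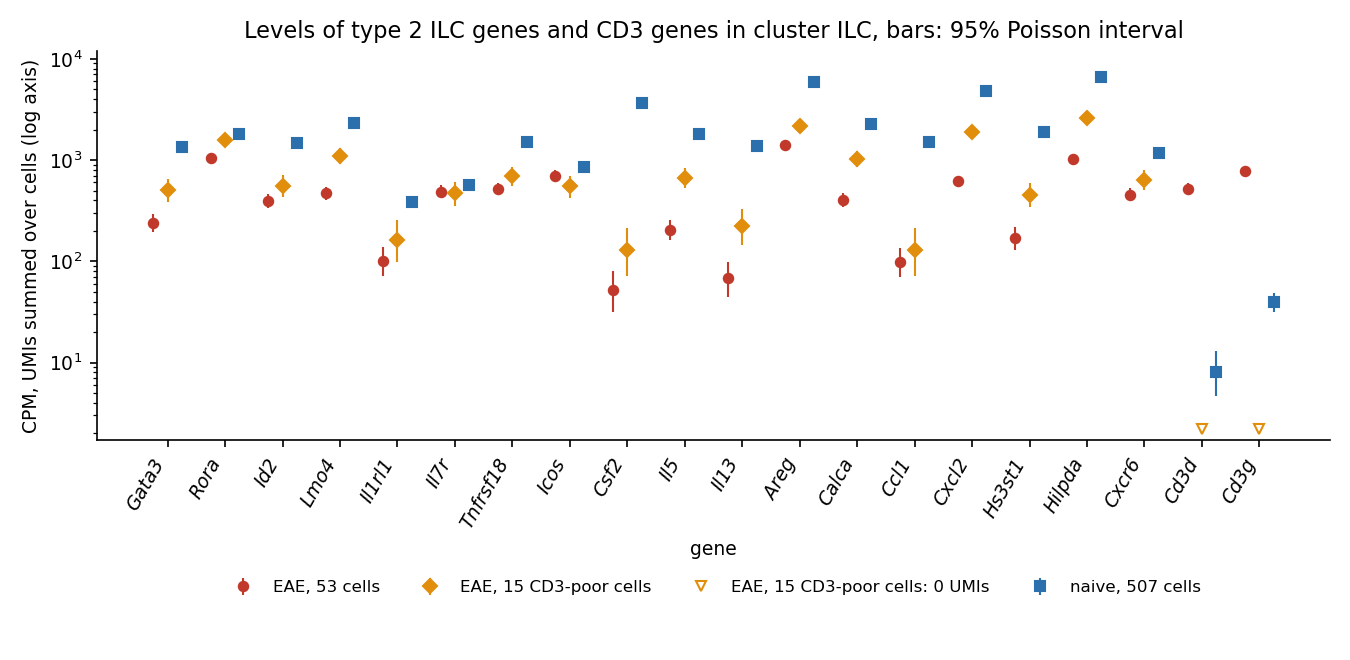
CPM of 20 genes (x axis) on a log y axis in all 53 EAE cells (circles), the 15 CD3-poor EAE cells (diamonds) and the 507 naive cells (squares), with 95% Poisson intervals of the summed counts. Open triangles mark 0 UMIs: the 15 CD3-poor EAE cells, chosen for few CD3 UMIs, held none of Cd3d and Cd3g, and for Csf2, Il13 and Ccl1 they lie far below the naive cells.

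Gene lists put these genes in context, each given as counts of members with at least 20 UMIs beside the background shares of 27.9% higher and 7.6% lower. Of 20 effector cytokines and growth factors, 10 were at least 2-fold lower in EAE and 5 higher (median log2 ratio -1.03). Among CD3-poor cells 7 of 18 were lower and 3 higher (-0.34). The 5 higher ones over all cells were Il17a, Tnfsf8, Tnfsf11, Tnf and Lta, and CD3-poor EAE cells held 1 of the 58 Il17a UMIs and 0 of the 56 Tnfsf8 UMIs. Chemokines were lower in 5 of 10 members and higher in 4 (median -1.41), and lower in 4 of 8 and higher in 1 among CD3-poor cells (-0.88). Ccl1 stood at 128 against 1497 CPM in CD3-poor cells, 11.7-fold lower (7.06 to 20.9), Cxcl2 at 1892 against 4783 CPM and Cxcl3 at 8.56 against 234 CPM. A single EAE cell held 11 of the 15 Ccl1 UMIs and 90 of the 221 Cxcl2 UMIs, and without the top cell the EAE levels were 38.4 and 1257 CPM. Lipid mediator and neuropeptide genes were lower in 7 of 12 members and higher in 2 (median -1.32), and lower in 4 of 12 and higher in 2 among CD3-poor cells (-0.45). Calca was at 1027 against 2271 CPM there, and at 604 CPM in EAE without its top cell.

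Transcription factors of ILC showed 6 of 18 members lower and 2 higher (median -0.16), and cytokine receptors 2 of 18 lower and 6 higher (median 0.51, negative after TMM scaling). Crlf2 was higher in EAE, at 223 against 59.8 CPM in CD3-poor cells (3.72-fold, 2.34 to 5.72), as was Il1r2, a decoy receptor for IL-1, at 120 against 15.5 CPM. Il18r1 stood at 130 CPM in EAE cells against 8.98 CPM in naive cells, with 43 of its 50 EAE UMIs in CD3-rich cells. Of 14 costimulation and checkpoint genes, 4 were higher and 3 lower (0.87). Pdcd1, which encodes PD-1, was at 300 against 67.3 CPM in CD3-poor cells and Tnfrsf4 (OX40) at 146 against 17.5 CPM, while Tnfrsf18 was at 694 against 1502 CPM. Tissue residency genes were lower in 2 of 7 members and higher in none (median -0.60), and lower in 6 of 7 after TMM scaling (-1.31). Among CD3-poor cells 1 of 7 was lower (-0.24), and against the 39 naive cells with at least 5733 UMIs 2 of 6 (-0.29). Cxcr6 stood at 642 against 1174 CPM and Cd69 at 283 against 472 CPM in CD3-poor cells. Recirculation genes were higher in 3 of 8 (median 0.58, negative after TMM scaling), and S1pr1 and S1pr4, 2 of those 3, had 0 UMIs in CD3-poor EAE cells.

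Some genes of recent activation were lower in EAE. Immediate early genes were at least 2-fold lower in 9 of 19 members and higher in 2 (median -0.73), and among CD3-poor cells in 5 and 1 of 19 (-0.41). Fos was at 753 against 2372 CPM in CD3-poor cells, Zfp36, which destabilises cytokine transcripts, at 334 against 1117 CPM and Junb at 4598 against 11199.9 CPM. Other EAE lymphocytes differed in the same direction, with Fos at 409 against 1502 CPM in gdTc, 156 against 305 CPM in CD8Tc and 121 against 290 CPM in NK. In CD4Tc it was at 120.2 against 1439 CPM, but 235 of 353 naive and 5 of 152 EAE cells of that cluster were CD3-poor. Inhibitors of NF-kB in the feedback list were lower in 4 of 14 members and higher in 1 (median 0.17, negative after TMM scaling), lower in 1 and higher in 0 among CD3-poor cells, and lower in 0 and higher in 2 of 13 against the 39 naive cells with at least 5733 UMIs. Heat shock genes were lower in 2 of 10 and higher in 2 (median 0.05, negative after TMM scaling), with Hspa1b at 13.0 against 191 CPM.

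Type I interferon response genes were higher in EAE. Of 9 type I interferon response genes, 8 were at least 2-fold higher and none lower (median log2 ratio 2.63), and 5 of 6 among CD3-poor cells (2.08). Irf7 was at 137 against 14.5 CPM in CD3-poor cells and Ifitm3 at 231 CPM in EAE, against 27.4 CPM in naive ones. The list of the interferon gamma response and antigen presentation was higher in 11 of 19 members and lower in none (1.62), and in 14 of 19 among CD3-poor cells (1.85). After TMM scaling it was higher in 8 and lower in 1. Against the 39 naive cells with at least 5733 UMIs, 6 of 18 were higher, with a median of 0.38 beside 0.37 for all genes. Psmb8, an immunoproteasome subunit, stood at 479 against 124 CPM and Cd74, a chaperone of class II molecules, at 2483 against 595 CPM. Cd74 was higher in EAE T and NK clusters as well, from 812 against 355 CPM in CD8Tc to 1654 against 320 CPM in NK, while the myeloid cluster myeloid1 held 35044 CPM of it in EAE and 50883 CPM in naive cells. Psmb8 was at 982 against 355 CPM in CD4Tc, 819 against 287 CPM in gdTc and 534 against 349 CPM in CD8Tc. The CD4Tc values set mostly CD3-rich EAE cells against mostly CD3-poor naive cells. The share of free RNA from class II positive cells in these values was not tested. Glycolysis and hypoxia genes were higher in 10 of 18 members and lower in 1 (median 1.13), higher in 4 and lower in 3 after TMM scaling, and higher in 4 and lower in 1 of 15 against those 39 naive cells. Members differed in direction, with Pkm at 522 against 182 CPM in CD3-poor cells, and Ero1l, the lower one, at 94.2 against 263 CPM. Ldha, lactate dehydrogenase, was at 912 CPM in EAE cells against 1804 CPM in naive cells, and Hilpda at 1029 against 6657 CPM, or 2586 against 6767 CPM in CD3-poor cells.

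The remaining lists are given by their counts over all cells, with the same background shares of 27.9% higher and 7.6% lower. Of the 53 EAE cells behind them 38 were CD3-rich. Members at least 2-fold higher and lower numbered 6 and 0 of 6 for NK and ILC1 genes, 5 and 2 of 8 for ILC3 genes, 5 and 0 of 9 for proliferation genes, and 2 and 2 of 6 for chemokine receptors. They numbered 1 and 0 of 8 for fatty acid handling, 3 and 0 of 12 for the glucocorticoid response, and 0 and 3 of 10 for arginine and polyamine metabolism. Markers of mast cells gave 2 and 2 of 6, of B cells 0 and 2 of 4, of dendritic cells 1 and 0 of 1, of stroma 2 and 0 of 2, and of red cells and platelets 1 and 2 of 3.

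RNA of other cell types moved with the condition. All 10 measured neutrophil markers were at least 2-fold higher in EAE ILC (median 4.76), and their 15 listed genes summed to 5715 CPM, against 280 CPM in naive ILC. S100a8 and S100a9 were found in each of the 15 CD3-poor EAE cells. The summed level was 3921 CPM in EAE CD8Tc and 8227 CPM in EAE CD4Tc, against 260 and 246 CPM in their naive counterparts, and 523135 CPM in EAE granulo1. Csf3r and Cxcr2, receptors of mature neutrophils, had 5 and 0 UMIs in EAE ILC. Macrophage and monocyte markers were higher in 9 of 10 members (median 3.33), summing to 2925 CPM in EAE ILC against 579 CPM in naive ILC. Each EAE cell of the cluster held 20 or more UMIs of macrophage, neutrophil, mast cell and B cell markers (median 43, highest 721), whereas naive cells held 0 to 139 (median 5). The part of such RNA in the results above was not tested.

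Over all cells the genes highest in EAE were Ifitm1, Tnfsf8, Nmrk1, Ccl3, Ifi27l2a, Cd3d, Ccl4, Cd2, Il17a, Lcn2, Cd3e and Ms4a4b. Per UMI, 10 of these 12 were higher in CD3-rich than in CD3-poor EAE cells, for example Cd2 at 442 against 8.56 CPM. The exceptions were Ifitm1, at 565 against 582 CPM, and Lcn2, a neutrophil gene, at 213 against 308 CPM. The Ifitm1 levels rest largely on 1 cell each, with 88 of 151 UMIs in CD3-rich and 61 of 68 in CD3-poor EAE cells. Without these top cells Ifitm1 was higher in CD3-rich cells as well, at 249 against 64.1 CPM. The 10 include Cd3d and Cd3e, whose UMIs set the division, and Ccl3 and Ccl4, which rest on 1 cell. The list of the T cell receptor complex was higher in 11 of 13 members (median 4.28), with Cd3d at 200 EAE UMIs, all in CD3-rich cells, which were chosen for such UMIs, against 17 naive ones. Ccl4 and Ccl3 rest on 1 cell with 429 of the 438 and 121 of the 125 EAE UMIs. Among CD3-poor cells the highest were Ifitm1, S100a8, S100a9, Wfdc17, Retnlg, Stmn1, Ngp, Plac8, Apoe, Cd14, Alox5ap and Lyz2. A single cell held 255 of the 400 S100a8 UMIs, 46 of the 62 of Retnlg, 38 of the 45 of Wfdc17, all 25 of Cd14 and 61 of the 68 of Ifitm1, along with 11 of Gata3. Another held 42 of the 49 UMIs of Stmn1, a gene of dividing cells, and 17 of Hist1h2ap.

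The 38 CD3-rich EAE cells were set beside the CD3-rich cells of EAE cluster CD4Tc. They held 449 CPM of Trac, the constant gene of the T cell receptor alpha chain, 146 CPM of Cd4 and 213 CPM of Il17a, against 707, 171 and 166 CPM in CD4Tc. Trdc, the delta chain gene, was at 22.5 CPM, against 2594 CPM in EAE gdTc, and Cd8a was at 0 UMIs. Gata3 was at 124 CPM against 28.3 CPM in CD4Tc and Areg at 1078 against 257 CPM. Part of that Gata3 level rests on few cells: 9 of the 38 held its 33 UMIs, 10 and 11 of them in 2 cells. Rora was at 794 against 610 CPM and Icos at 771 against 609 CPM, and Foxp3, the factor of regulatory T cells, had no UMI. The median depth was 6681 UMIs per cell, against 7305 in CD4Tc. Doublets were kept, and their part was not tested.

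**Figure D5:**
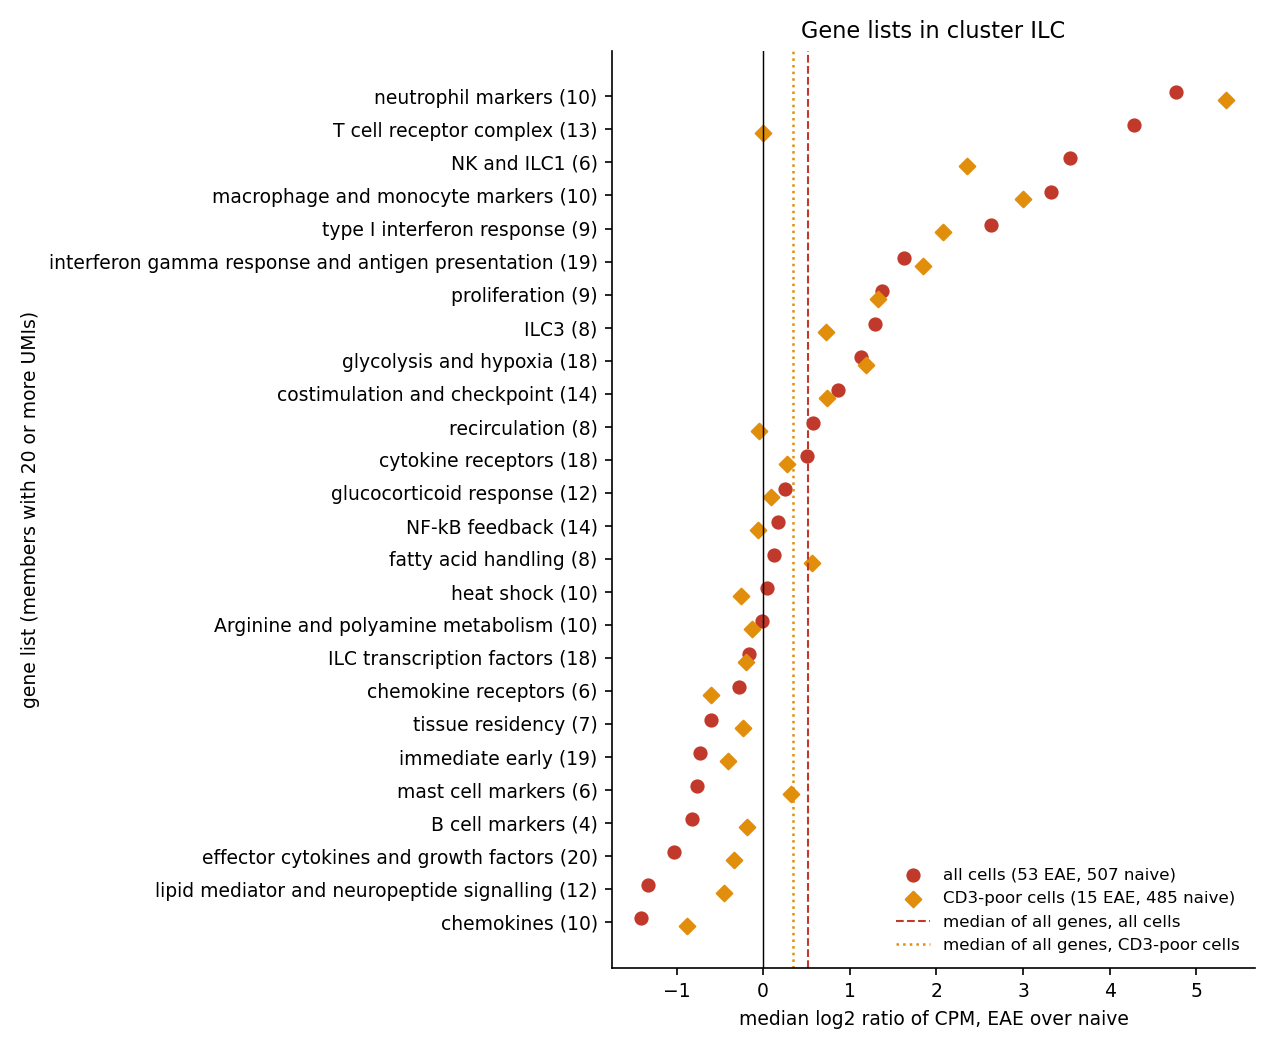
Median log2 ratio of CPM, EAE over naive (x axis), for each list with at least 4 measured members (y axis, number of members in brackets), in all cells of cluster ILC (circles) and in CD3-poor cells (diamonds); vertical lines mark the medians of all genes, 0.52 and 0.35. The T cell receptor list lies at 4.28 in all cells and at 0.00 in CD3-poor cells, which were chosen for lacking CD3 UMIs. That 0.00 can come from a member at 0 UMIs whose log2 ratio was set to 0. Neutrophil markers and both interferon lists lie right of the all-gene medians in all cells and in CD3-poor cells.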

How the data were processed

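Single-cell RNA counts of mouse dura were used. The deposited counts (UMIs per gene and cell) came from Cell Ranger 3.1.0 on mm10, per the submitters' processing notes. Clusters and conditions are the authors' annotation, which covered 4579 EAE and 2776 naive cells and left 421 and 350 barcodes without a cluster. One label field gives EAE for both libraries, so sample titles set the groups. Doublets were kept and no caller was run. Some genes are not reported here. Rat samples and antigen receptor tables were not used here.

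UMIs were summed over ILC per library, and none of the named genes is among 71 rows whose gene name occurs more than once. Ratios are EAE over naive CPM with exact conditional binomial intervals, shares have Clopper-Pearson intervals, and levels in the plots exact Poisson ones. Genes needed 20 UMIs over both groups, a side at 0 was set to 3 UMIs per group, and at least 2-fold counted as called. Where a ratio with such a side then pointed towards the group at 0 UMIs, its log2 value was set to 0. Other scalings, minimum counts and choices of cells were tried. Detection was compared as the expected share after thinning to 1000 UMIs. Named genes were the 5 markers, the 10 leading naive genes with at least 100 UMIs, the 12 highest and lowest ratios with at least 50 UMIs, and members of 29 lists. The members and lists were chosen with earlier results of these data known, and CD3-poor was defined after seeing the data. Positions are from GENCODE M21. The scripts were tested on simulated data. Tools were Python 3.11.15, numpy 2.4.6, pandas 2.3.3, scipy 1.17.1, matplotlib 3.10.9, and edgeR 4.0.16 in R 4.3.3 for TMM factors alone.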

Additional observations from a re-analysis of the deposited data

How the results depend on the processing

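As deposited, 1688 of 6055 genes were at least 2-fold higher and 460 lower in EAE. Against the 39 naive cells with at least 5733 UMIs the counts were 772 and 224 of 3373 genes. They were 567 and 1207 of 6055 under TMM scaling, and 756 and 310 of 3638 with a minimum of 50 UMIs. Without cells holding T cell receptor genes, where 2 EAE cells with 13296 UMIs remained, they were 466 and 147 of 2508. Of the naive cells, 174 remained without those holding T cell receptor genes. TMM scaling moves every log2 ratio by -0.71, and the number of measured genes differs between most of the other settings. CD3-poor cells gave 1241 and 398 of 5356 genes, a minimum of 10 UMIs 2440 and 598 of 7843, and equal weight per cell 1701 and 509 of 6055. The EAE share of 1.16% became 6.79% of lymphoid cells and 0.328% for CD3-poor members, at any depth and at or above 5722 UMIs. The naive share of 18.3% became 31.4% of lymphoid cells, 5.41% at or above 5722 UMIs, 4.74% for CD3-poor members there and 16.2% of all barcodes.

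Without cells holding T cell receptor genes, the median log2 ratio of lipid mediator and neuropeptide genes became 0.32, those of ILC3 and proliferation genes 0.00, and the log2 ratios of Igsf5 and Il5 0.078 and 1.73. The Il5 value rests on 1 of the 2 EAE cells left, which held 75 Il5 UMIs, while the other held 0. The T cell receptor list was at 0.00 and Ccl4 at -0.22 in CD3-poor cells, and proliferation at -0.016 with a minimum of 50 UMIs. Medians of 0.00 can come from members at 0 UMIs whose log2 ratio was set to 0. They do not measure equal levels. Under TMM scaling the list medians of cytokine receptors (-0.20), recirculation (-0.14), NF-kB feedback (-0.54), heat shock (-0.66), the glucocorticoid response (-0.46) and fatty acid handling (-0.59) turned negative. Leaving out cells with at least 10 UMIs of other lineages left 0 EAE cells and gave no value. No paired analysis was possible because each condition is 1 pooled library.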
